A study of Mus musculus with 42 samples.

Results

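The first 6 h of culture without IL-21 were examined in trNK-V cells, the subset of uterine tissue-resident natural killer (trNK) cells with little or no 4-1BB and CD55 on the surface. The comparison holds 6 libraries, 2 collected after 6 h in medium without IL-21 and 4 collected at 0 h, out of the 16 libraries of a bulk RNA-Seq time course and the 42 samples of the series. All 4 libraries of 0 h served as controls, 2 labelled - IL-21 and 2 labelled + IL-21, since no time in culture had passed. The cells of every group came from wild-type C57BL/6 female mice of 8 to 12 weeks at gestational day 6.5 (gd6.5) and were sorted as CD45+ Lin- NK1.1+ NKp46+ CD49a+ CXCR6- cells. They were kept in RPMI-1640 medium with 10% fetal bovine serum and IL-15, a cytokine on which NK cells depend for survival. The sample characteristics give IL-15 at 10 ng/ml and the treatment protocol gives 15 ng/ml, and groups labelled + IL-21 received 20 ng/ml IL-21. Every culture thus held IL-15, and the comparison describes 6 h in medium with IL-15 after the sort. Digestion of the uterus and sorting came before 0 h as well. The labels do not say whether replicates came from separate mice or cultures, and p-values therefore measure the spread between these samples, which may be technical.

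Uterine trNK cells multiply in the decidua early in pregnancy and combine traits of cytolytic NK cells, which carry granules of perforin and granzymes, with the anchoring of cells that do not recirculate. Lymphocytes taken from tissue into culture lose contact with neighbouring cells and receive instead a uniform supply of nutrients and growth cytokine, and genes of the cell cycle, ribosome production and cytokine secretion are among those known to respond to such supply. Genes of late cell cycle are transcribed in G2 and mitosis, when the cyclin B kinase complex drives entry into division and the anaphase-promoting complex later destroys it. Promoters of many such genes hold CCAAT boxes and a cell cycle genes homology region (CHR), the letters TTTGAA, which are known contact points of NF-Y and of the MuvB complexes.

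The 6 libraries held between 30136010 and 66468883 counts, with 61203086 and 66468883 at 6 h. Between 14285 and 15688 genes had a count, and mitochondrial genes took 3.57% to 3.78% of counts at 6 h against 3.80% to 5.42% at 0 h. Levels are given as RPKM, counts divided by gene length and library total, so that they can be set side by side between genes. Of 54446 listed genes, 3503 were tested, those that exceeded 10 RPKM in each library of at least 1 labelled group. Genes under 10 RPKM at 0 h were thus tested only where a later group exceeded it. The filter therefore favours rises among them, and the counts and shares of genes above 0 h include such genes. In a principal component analysis of the 3503 genes, PC1 held 57.4% of the variance and PC2 10.5%. The 4 libraries of 72 h stood apart from the rest, with PC1 scores of 56.9 and 84.5 for 72 h - IL-21 and 12.2 and 53.8 for 72 h + IL-21. The 6 h - IL-21 libraries scored -24.9 and -14.2, beside -18.0 to 1.1 for the 4 libraries of 0 h. Leaving the 72 h libraries out of the fit lowered the common biological coefficient of variation from 0.402 to 0.254, and the counts of calls are therefore given with and without them, a choice made after these libraries had been seen. The levels of the 6 libraries compared are the same in both fits.

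**Figure D1:**
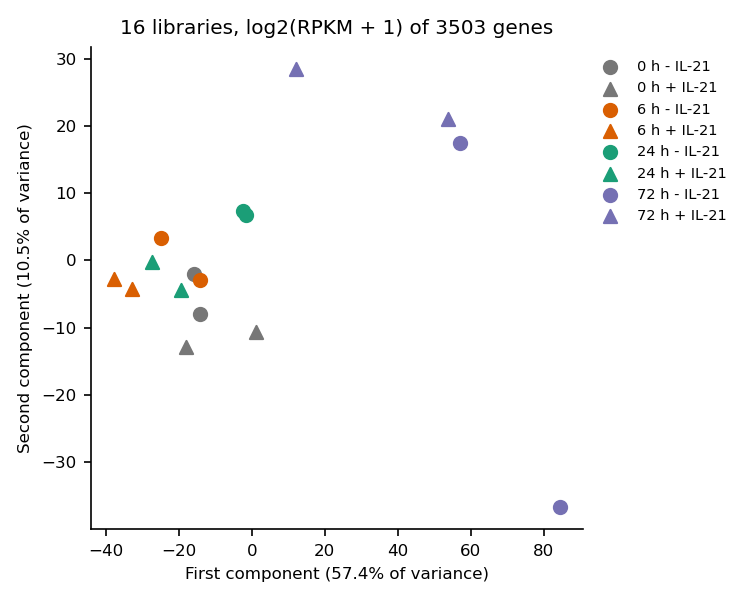
Scores of the 16 time-course libraries on PC1 (57.4% of the variance) and PC2 (10.5%), from log2(RPKM + 1) of 3503 genes, with 1 point per library and symbols for time and IL-21. The 6 h - IL-21 libraries at -24.9 and -14.2 on PC1 lie close to the 0 h libraries, and 72 h - IL-21 libraries lie at 56.9 and 84.5.

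The labelled groups of 0 h were compared as a background. Between 0 h + IL-21 and 0 h - IL-21, edgeR called 0 genes, where a call needs both an adjusted p under 0.05 and more than a 2-fold difference, against 110 genes with an unadjusted p below 0.05, and DESeq2 and limma voom also called 0. Across genes, themselves no replicates, Spearman's correlation reached 0.955 between the 6 h libraries, 0.949 between the 0 h - IL-21 libraries and 0.905 between the 0 h + IL-21 libraries. The lowest correlation of any pair was 0.883, between 0 h + IL-21 replicate 2 and 6 h replicate 1, and the highest was 0.956, between 0 h - IL-21 replicate 1 and the same 6 h library.

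Markers of NK cells were present as the sort implies. All 12 genes of that list, among them Ncr1, Klrb1c and Gzma, exceeded 1 RPKM in the 6 libraries, with summed levels of 25923 to 32060 RPKM at 0 h and 23040.3 to 24588 at 6 h. Of 14 T cell markers, 9 exceeded 1 RPKM, mainly T cell receptor constant segments and CD3 chains that NK cells can transcribe, while Cd8a and Cd5 were at 0, and the sums were 1503 to 1773 RPKM at 0 h and 1524 to 1586 at 6 h. The B and plasma cell list summed to 85.9 to 165 RPKM at 0 h and 182 to 260 at 6 h, nearly all of it Ighm, the heavy chain of IgM, with the defining markers Ms4a1 and Ebf1 at 0. The macrophage and monocyte list summed to 10.8 to 29.5 RPKM at 0 h and 27.3 to 40.8 at 6 h, with C1qb, C1qc, Csf1r, Mrc1 and Fcgr1 at 0. Sums were at most 0.288 RPKM for neutrophils, 0.561 for stromal and decidual cells and 1.67 for erythroid cells. The lists of dendritic cells, mast cells, epithelial cells and endothelial cells summed to at most 38.3 RPKM in any of the 6 libraries. The only tested mast cell and basophil marker, Mcpt8, had a log2 fold change of 1.89, and the only tested macrophage marker, Cd68, of 1.06. Both lay above all 0 h libraries, while the only tested dendritic cell marker, Itgax, lay below them at -0.45. The sum dominated by Ighm was higher in both 6 h libraries than in any of 0 h, whereas the ranges of the macrophage sum overlapped, and the part of either in the results was not tested. In bulk samples, fewer cells of a type and less RNA per cell cannot be told apart.

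Few genes passed the test. In the fit of all 16 libraries, edgeR's quasi-likelihood test with Benjamini-Hochberg adjustment called 0 genes higher after 6 h, 0.0% of those tested, and 1 gene lower, 0.0285%. At an unadjusted p below 0.05 there were 109 higher and 85 lower genes, while DESeq2 called 8 higher and 4 lower and limma voom 5 higher and 2 lower. The 7 genes of limma voom were Lilr4b, Gnl3, Pold4, Hmgn2, Ccnb1, Dtnbp1 and Ccnb2, and DESeq2 called these with Mphosph10, Hspe1, H2afv, Qpct and B4galt1, so that of the gene lists described below the full fit gave calls by these tools in the mitosis, ribosome biogenesis and heat shock lists alone. Without the 72 h libraries, edgeR called 13 genes higher, 0.371%, and 4 lower, 0.114%, DESeq2 called 32 and 10, and limma voom 29 and 5. In that fit 251 genes were higher and 252 lower at an unadjusted p below 0.05, of the 3503 tested. The 13 higher and 4 lower genes depended on both 6 h libraries: without 6 h replicate 1 only Ube2c was called and without 6 h replicate 2 none, where leaving out a library keeps the lone 6 h sample at the spread of the other groups. Leaving out 0 h - IL-21 replicate 1 gave 36 calls. With no filter on low counts, edgeR called 11 genes in the full fit and 101 without the 72 h libraries. Calls by edgeR given below are those with the 10 RPKM filter unless another setting is named. In RPKM, both 6 h libraries lay above all 4 libraries of 0 h for 498 genes, 14.2%, and below all of them for 218 genes, 6.22%. The median log2 fold change of all tested genes was 0.003 with TMM scaling and 0.105 with library sizes alone, so the split of the calls made without the 72 h libraries changed from 13 higher and 4 lower to 19 higher and 2 lower, and that of the full fit from 0 and 1 to 3 and 1.

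**Figure D2:**
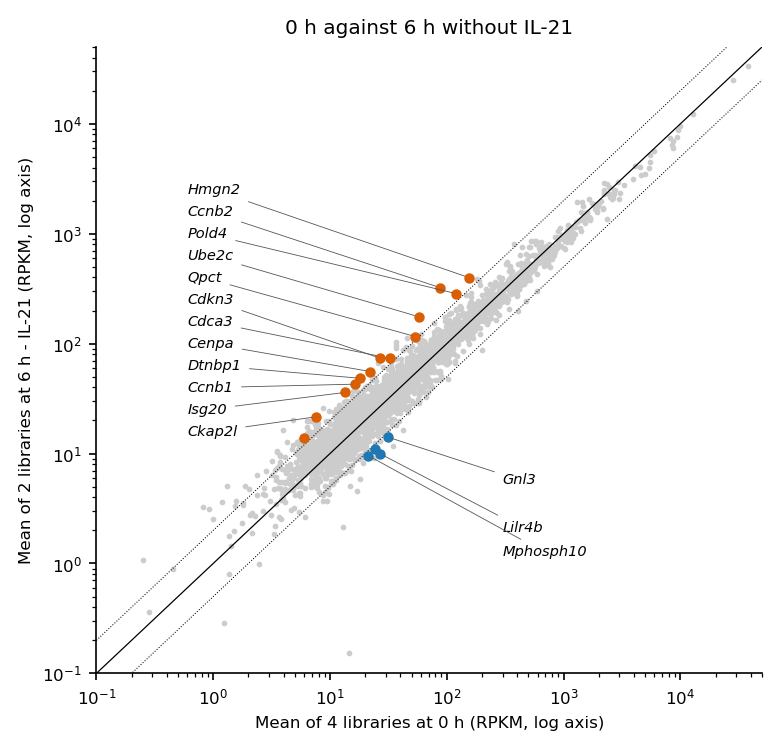
Mean RPKM at 0 h (n = 4) against mean RPKM after 6 h without IL-21 (n = 2), both on log axes, for the 3503 genes tested, with called genes marked, most by name, for the fit without the 72 h libraries and dotted lines at a 2-fold difference. The 13 genes called higher and 4 called lower lie to either side of the line of equal levels, in RPKM scaled by library totals, with which the median log2 fold change of all tested genes is 0.105.

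Of the 13 genes called higher without the 72 h libraries, 4 are in the list of mitosis genes. Of the 29 tested genes of the mitosis list, 28 had a positive log2 fold change, with a median of 0.62 beside 0.00 for all genes. Both 6 h libraries exceeded all 4 libraries of 0 h for 19 of the 29, beside 14.2% of all tested genes, and fell below them for 0. In the full fit, 0 of them were called by edgeR and 7 had an unadjusted p below 0.05, all higher. Without the 72 h libraries, 17 of the 29 had an unadjusted p below 0.05, all higher, beside 251 of all 3503 genes, and 4 were called, Ccnb2, Ube2c, Ccnb1 and Cenpa, beside 0.371% of all tested genes. The sequences around the start sites of these 4 genes are shown because CHR and CCAAT letters recur in them. Each runs from 250 bases before to 50 bases after the start in the RefSeq annotation of GRCm38.p6, on the strand of the gene, at chr2:164769679-164769978 on the plus strand for Ube2c, chr9:70421505-70421804 on the minus strand for Ccnb2, chr5:30666636-30666935 on the plus strand for Cenpa and chr13:100786437-100786736 on the minus strand for Ccnb1. Capitals mark the CHR letters TTTGAA and the CCAAT letters, both read on either strand.
Ube2c: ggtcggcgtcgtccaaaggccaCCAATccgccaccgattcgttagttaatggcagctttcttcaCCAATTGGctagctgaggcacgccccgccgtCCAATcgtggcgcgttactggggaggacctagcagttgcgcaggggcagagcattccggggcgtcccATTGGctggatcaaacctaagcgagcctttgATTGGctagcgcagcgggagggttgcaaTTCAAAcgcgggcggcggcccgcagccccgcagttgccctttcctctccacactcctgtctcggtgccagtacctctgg
Ccnb2: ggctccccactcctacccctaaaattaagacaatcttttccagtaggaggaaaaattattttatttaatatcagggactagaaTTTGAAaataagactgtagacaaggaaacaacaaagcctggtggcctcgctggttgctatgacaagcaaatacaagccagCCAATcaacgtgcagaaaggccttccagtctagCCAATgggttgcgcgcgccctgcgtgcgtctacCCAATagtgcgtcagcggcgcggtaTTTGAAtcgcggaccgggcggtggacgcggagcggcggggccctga
Cenpa: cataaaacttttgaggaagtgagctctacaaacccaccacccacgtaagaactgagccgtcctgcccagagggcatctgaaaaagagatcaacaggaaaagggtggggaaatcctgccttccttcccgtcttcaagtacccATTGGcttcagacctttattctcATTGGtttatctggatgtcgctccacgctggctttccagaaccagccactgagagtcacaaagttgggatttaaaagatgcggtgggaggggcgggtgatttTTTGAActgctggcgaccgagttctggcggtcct
Ccnb1: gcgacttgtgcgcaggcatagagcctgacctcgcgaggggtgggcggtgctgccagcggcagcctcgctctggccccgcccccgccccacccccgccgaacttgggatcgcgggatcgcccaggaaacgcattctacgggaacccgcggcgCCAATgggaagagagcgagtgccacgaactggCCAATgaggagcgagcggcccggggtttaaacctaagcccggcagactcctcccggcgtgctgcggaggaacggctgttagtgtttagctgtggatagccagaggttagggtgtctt

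The Ccnb2 sequence holds CCAAT letters 87, 54 and 21 bases before the start and CHR letters 167 bases before and 4 bases after it. Ube2c holds CHR letters 29 bases before the start with 6 CCAAT matches upstream, a pair of which overlap, and Cenpa holds CHR letters 16 bases after the start with CCAAT letters 109 and 86 bases before it. Ccnb1 holds CCAAT letters 99 and 67 bases before the start and no TTTGAA in this window. Among the 13 promoters of 11 genes called higher without the 72 h libraries, 46.2% held CHR letters, 76.9% CCAAT letters and 46.2% both. The shares were 14.3%, 40.7% and 6.22% for the 3069 promoters of tested genes, and 17.9%, 37.4% and 6.95% for all 32851 promoters of the table. Of the 25 promoters of mitosis genes, 52.0% held both. Qpct had no entry. CHR and CCAAT letters were chosen after the values had been seen, and a match is a description of the sequence. In the same 13 promoters, the letters of the heat shock element (GAANNTTC), CRE (TGACGTCA), AP-1 (TGANTCA) and the ATF4 site (TGANGCAA) had 0 matches on either strand, beside 6.26%, 4.01%, 5.28% and 3.78% of the promoters of tested genes. GAS letters (TTCNNNGAA) were in 23.1% beside 7.04%, the antioxidant element (TGACNNNGC) in 23.1% beside 15.5% and the E-box (CACGTG) in 7.69% beside 337 of those 3069 promoters.

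Ccnb2 encodes cyclin B2, a partner of the mitotic kinase Cdk1. Its levels were 115 and 95.2 RPKM at 0 h - IL-21, 97.7 and 40.6 at 0 h + IL-21, and 323 and 326 after 6 h without IL-21. The 6 h libraries did not overlap those of 0 h, and the mean ratio was 3.72. The log2 fold change was 1.79 with a standard error (SE) of 0.30 in the full fit, which edgeR did not call (adjusted p = 0.0749), and 1.79 with an SE of 0.29 without the 72 h libraries (adjusted p = 0.0142 by edgeR). Ccnb1, cyclin B1, which together with Cdk1 starts mitosis, was at 16.5, 20.6, 11.5 and 17 RPKM at 0 h and at 44.3 and 41.3 at 6 h. Its log2 fold change was 1.29 with an SE of 0.20 without the 72 h libraries (adjusted p = 0.0131 by edgeR) and its adjusted p in the full fit was 0.064. The kinase gene Cdk1 itself was at 25.2 to 37.6 RPKM at 0 h and at 50.7 in both 6 h libraries, without overlap and without a call in either fit.

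Ube2c encodes the ubiquitin-conjugating enzyme that works with the anaphase-promoting complex. It was at 61.8, 67.7, 56.1 and 43.5 RPKM at 0 h and at 155 and 197 after 6 h. The groups did not overlap, and Ube2c was the gene still called when 6 h replicate 1 was left out along with the 72 h libraries. Its log2 fold change of 1.53 had an SE of 0.19 without the 72 h libraries (adjusted p = 0.00276 by edgeR) and of 0.77 with them (adjusted p = 0.848). Cenpa, the histone variant that marks centromeres, was at 20.5, 27.9, 20.5 and 19.9 RPKM at 0 h and at 61.1 and 50.4 at 6 h. Here the SE was 0.15 without and 0.89 with the 72 h libraries, around log2 fold changes of 1.22 and 1.23. In the 72 h - IL-21 libraries themselves, Cenpa was at 3.94 and 0.0082 RPKM and Ube2c at 3.71 and 0.0185, and the full fit takes its estimate of spread over these libraries as well.

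Further genes of division that were called higher without the 72 h libraries were outside the list. Cdkn3, a phosphatase acting on cyclin-dependent kinases, was at 28.4, 27.6, 34.7 and 16 RPKM at 0 h and at 63.1 and 84.6 at 6 h. Ckap2l, a protein of the mitotic spindle, was at 4.62 to 9.89 RPKM at 0 h and at 17.9 and 25.4 at 6 h. It was under 10 RPKM in every 0 h library, so it entered the test only through later groups. Cdca3, a trigger of mitotic entry, was at 28.8 to 40 RPKM at 0 h and at 67.5 and 79.5 at 6 h. In each of these 3 genes the 6 h libraries lay above every 0 h library. Their log2 fold changes lay between 1.07 for Cdca3 and 1.43 for Ckap2l, with adjusted p-values by edgeR from 0.0213 to 0.0464 without the 72 h libraries, and 0 of the 3 were called in the full fit.

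Birc5, the survivin subunit of the chromosomal passenger complex, passed the adjusted p without the 72 h libraries at a smaller fold. It was at 94.2 to 114 RPKM at 0 h and at 173 and 199 at 6 h, a log2 fold change of 0.75 (adjusted p = 0.0214 by edgeR). Ccna2, cyclin A2, and Hmgb2, a chromatin protein abundant in dividing cells, did likewise, with log2 fold changes of 0.98 and 0.69. Pttg1, securin, was at 65.3 to 82.9 RPKM at 0 h and at 61.7 and 84.8 at 6 h, and was the only tested mitosis gene with a negative log2 fold change, -0.11. Mki67, the proliferation marker Ki-67, lay below the RPKM filter and was not tested, at 5.23 to 8.74 RPKM at 0 h and at 7.11 and 7.94 at 6 h, so that its ranges overlapped.

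**Figure D3:**
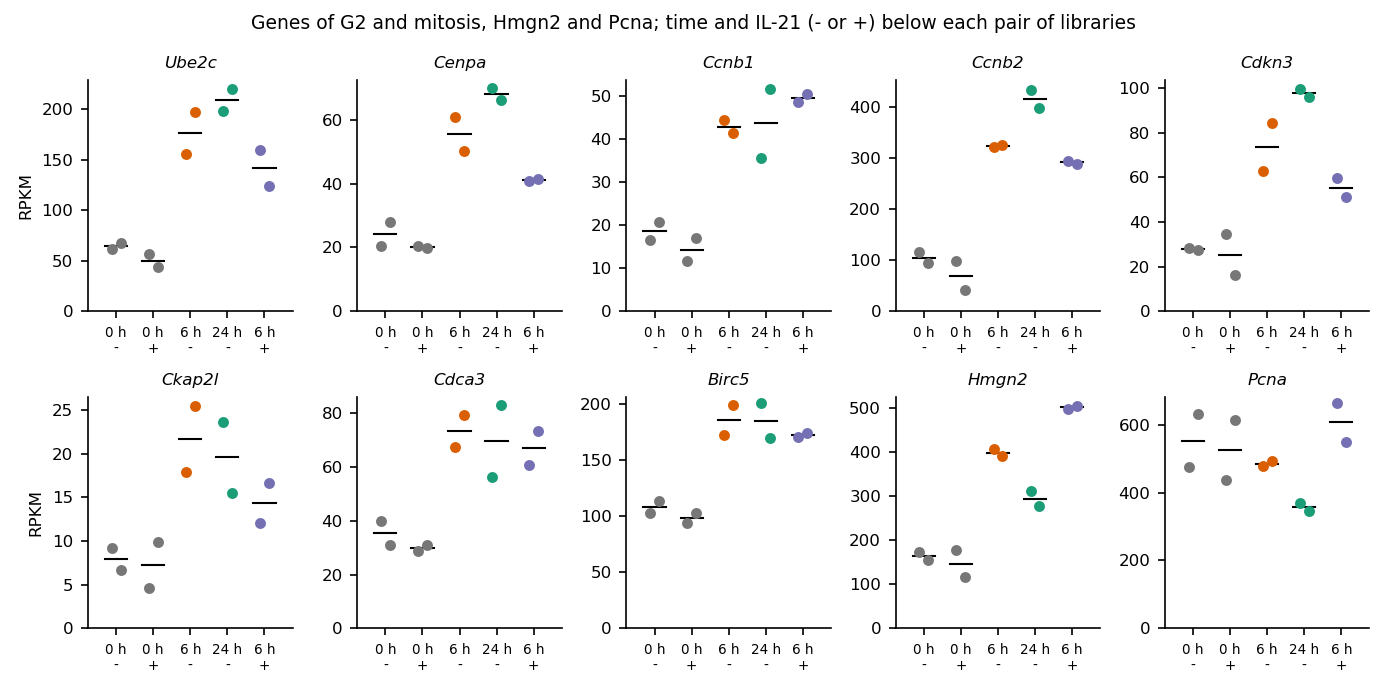
RPKM (linear axes from 0) of genes of G2 and mitosis, Hmgn2 and Pcna at 0 h - and + IL-21, 6 h and 24 h - IL-21 and 6 h + IL-21, with 1 point per library and a bar at the mean of 2. Ccnb2 lies at 40.6 to 115 RPKM at 0 h and at 323 and 326 after 6 h without IL-21.

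In the DNA replication list edgeR made no call. Of its 31 tested genes, 20 had a positive log2 fold change, with a median of 0.11, and edgeR called 0 in either fit, with 0 at an unadjusted p below 0.05 in the full fit and 1 higher and 1 lower without the 72 h libraries. The 6 h libraries lay above all 0 h libraries for 4 of them, 12.9% beside 14.2% of all tested genes, and below for 1, 3.23% beside 6.22%. Pcna, the sliding clamp of DNA polymerase, was at 474, 632, 436 and 614 RPKM at 0 h and at 477 and 494 at 6 h, with a log2 fold change of -0.25 and a 95% confidence interval of -0.59 to 0.10 without the 72 h libraries. Pold4, a small subunit of DNA polymerase delta that is not in the list, was called higher without the 72 h libraries. It was at 141, 140.2, 117 and 84.5 RPKM at 0 h and at 288 and 283 at 6 h, with a log2 fold change of 1.14 and an SE of 0.20 (adjusted p = 0.0209 by edgeR). Whether the mitosis and replication lists differ was not tested.

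Hmgn2, a nucleosome-binding protein, was at 116 to 178 RPKM at 0 h and at 406 and 392 at 6 h, with a log2 fold change of 1.25 (adjusted p = 0.00632 by edgeR without the 72 h libraries). Its processed pseudogene Hmgn2-ps1 moved from 20.3 to 30.1 RPKM at 0 h to 69.4 and 63.1 at 6 h. Reads of the gene and of this copy cannot be told apart with certainty, so the Hmgn2 value is uncertain. H2afv, a histone H2A variant, passed the adjusted p of edgeR without the 72 h libraries (0.0287) but not the fold limit, and was not called, at 124 to 219 RPKM at 0 h and 374 and 404 at 6 h.

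Genes of ribosome production leaned lower, with 1 call. Of 17 tested ribosome biogenesis genes, 16 had a negative log2 fold change, with a median of -0.49 beside 0.00 for all genes and -0.39 with library sizes alone. In the full fit edgeR called 0 and 6 were lower at an unadjusted p below 0.05. Without the 72 h libraries 10 of the 17 were lower at an unadjusted p below 0.05, beside 252 of all 3503 genes, and 1 was called, beside 0.114% of all tested genes. Both 6 h libraries lay below all 0 h libraries for 4 of the 17, beside 6.22% of all tested genes, and above them for 0. The gene called was Gnl3, nucleostemin, a nucleolar GTPase abundant in dividing cells. It was at 29.8, 25.9, 25.1 and 44.8 RPKM at 0 h and at 14.6 and 13.6 at 6 h. Its log2 fold change was -1.26 with an SE of 0.23 (adjusted p = 0.0213 by edgeR without the 72 h libraries, 0.0749 with them).

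Mphosph10, a component of the small-subunit processome that is not in the list, was also called lower without the 72 h libraries. It was at 16.7, 17.5, 21 and 30.1 RPKM at 0 h and at 9.09 and 10 at 6 h, with a log2 fold change of -1.25 (adjusted p = 0.0427 by edgeR). Npm1, nucleophosmin, the most abundant gene of the list, was at 664 to 986 RPKM at 0 h and at 584 and 590 at 6 h, without overlap and without a call (log2 fold change -0.52). Myc, a transcription factor that drives ribosome production, gave overlapping levels of 12.5 to 25.9 RPKM at 0 h and 24.5 and 13.8 at 6 h. In a set of promoters for 15 of these 17 genes, 23.5% of 17 promoters held the E-box letters CACGTG, beside 337 of the 3069 promoters of tested genes.

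Cytosolic ribosomal protein genes leaned the same way by less. Of 72 tested, 66 had a negative log2 fold change, with a median of -0.32 and a range from -0.60 to 0.07. edgeR called 0 in either fit, with 8 lower and 0 higher at an unadjusted p below 0.05 in the full fit and 24 lower without the 72 h libraries. The 6 h libraries lay below all 0 h libraries for 15 of the 72, beside 6.22% of all tested genes, and above for 0. Rplp1, a protein of the ribosomal stalk, was at 4319 to 5151 RPKM at 0 h and at 3104 and 3776 at 6 h. The median of the list was -0.23 with library sizes alone, so the direction did not change with the scaling. The 15 mitochondrially encoded transcripts, 14 of them negative, had a median of -0.40 with 0 calls by edgeR in either fit, and 5 were below all 0 h libraries, beside 6.22% of all tested genes. With only 0 h - IL-21 as control, the median of these transcripts was -0.08.

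Lilr4b was the gene called in the full fit. It encodes a receptor of the leukocyte immunoglobulin-like family. In the counts it is ENSMUSG00000112023, at chr10:51480632-51486703 on the plus strand of GRCm38. Its levels were 28.6 and 30.8 RPKM at 0 h - IL-21, 23.2 and 24.8 at 0 h + IL-21, and 10.1 and 9.78 after 6 h. Both 6 h values were less than every 0 h value, and the log2 fold change was -1.53 with an SE of 0.21 (adjusted p = 0.036 by edgeR, 0.00276 without the 72 h libraries). The full-fit call was lost without either 6 h library, without 0 h - IL-21 replicate 1 or 2, and without 0 h + IL-21 replicate 1, at log2 fold changes of -1.56 to -1.47. The filterByExpr filter on counts, a fit of only the libraries compared, the 0 h groups averaged and either 0 h group alone also lost this call. With no filter on low counts, Lilr4b was not among the 11 genes edgeR called in the full fit. The paralog Lilrb4a, an inhibitory receptor of the same family, was at 0.109 to 3.41 RPKM in the 6 libraries and was not tested, and reads that both genes share make the Lilr4b level uncertain.

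Genes of homing and residence were examined next. Cxcr6, the receptor of CXCL16 and a marker of resident lymphocytes, was at 2.3, 7.29, 2.76 and 6.83 RPKM at 0 h and at 25.8 and 14.2 at 6 h. Every 0 h value was under 10 RPKM, so Cxcr6 was tested only through later groups, and the filter favours its rise. Its log2 fold change was 1.96 with an SE of 0.46 without the 72 h libraries. In that fit edgeR with no covariates and the 10 RPKM filter did not call it (adjusted p = 0.0845), whereas DESeq2 and limma voom did. With no filter on low counts, edgeR called it in both fits. The sort had kept CXCR6- cells, a gate on the protein of this gene.

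Of the 13 tested genes of residency, integrins and egress, 9 had a positive log2 fold change, with a median of 0.34. The 6 h libraries lay above all 0 h libraries for Cxcr6, Gpr183, Itgb1 and Rgs1, beside 14.2% of all tested genes. Gpr183, an oxysterol receptor that guides lymphocytes, was at 5.36 to 10.2 RPKM at 0 h and at 20.6 and 17.7 at 6 h. It was not called under the RPKM filter (adjusted p = 0.264 by edgeR without the 72 h libraries), and edgeR with no filter called it without those libraries. Cd69, which holds lymphocytes in tissue by removing a sphingosine phosphate receptor, overlapped at 21.2 to 38.8 RPKM at 0 h and 48.8 and 37.8 at 6 h. The sort gene CD49a is encoded by Itga1, which was not tested at 2.7 to 5.4 RPKM at 0 h and 4.15 and 5.44 at 6 h. Tnfrsf9 and Cd55, the genes of the surface proteins that define trNK-V, overlapped between the times, with Tnfrsf9 at 191 to 369.8 RPKM at 0 h and 314 and 207 at 6 h and Cd55 at 35 to 51 and 38.1 and 42.6.

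Further calls without the 72 h libraries lay outside these groups. Qpct, the enzyme that turns the leading glutamine of secreted peptides and chemokines into pyroglutamate, was at 47.5, 55.4, 58.3 and 53.7 RPKM at 0 h and at 108 and 123 at 6 h, a log2 fold change of 1.01 (adjusted p = 0.0142 by edgeR). Dtnbp1, dysbindin, a part of the machinery of lysosome-related organelles, was at 14.7 to 22.5 RPKM at 0 h and at 56.4 and 40.3 at 6 h, a log2 fold change of 1.30. Isg20, an interferon-inducible exonuclease, was at 9.29 to 16.4 RPKM at 0 h and at 43.5 and 28.5 at 6 h, a log2 fold change of 1.29 with an adjusted p of 0.0487 by edgeR, close to the threshold. Isg20 was the only call by edgeR among 15 tested interferon-stimulated genes, whose median was 0.09 with 10 positive. Both 6 h libraries lay above all 0 h libraries for 6 of the 15, 40% beside 14.2% of all tested genes, and below them for 1, 6.67% beside 6.22%. Ifitm2, an interferon-inducible membrane protein, was at 34.3, 38.2, 54.6 and 20 RPKM at 0 h and at 108 and 85.9 at 6 h, without overlap. Without the 72 h libraries its adjusted p was 0.0845 by edgeR, and DESeq2, limma voom and edgeR with no filter on low counts called it. The tetraspanin Cd9 passed the adjusted p (0.0214 by edgeR) at a log2 fold change of 0.95, at 43.2 to 72.7 RPKM at 0 h and 136 and 110.2 at 6 h. Idi1, of isoprenoid and cholesterol synthesis, passed it in the other direction, at 40.1 to 45.6 RPKM and 26.9 and 28.6.

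Cytokine and chemokine genes were mostly lower, without a call by edgeR under the 10 RPKM filter. Of 12 tested, 9 had a negative log2 fold change, with a median of -0.58, and edgeR called 0 in either fit, with 4 lower at an unadjusted p below 0.05 in the full fit and 5 without the 72 h libraries. The 6 h libraries lay below all 0 h libraries for 5 of them, Xcl1, Ccl5, Csf2, Ccl9 and Spp1, beside 6.22% of all tested genes. Xcl1, the chemokine that attracts cross-presenting dendritic cells, was at 7682, 8889, 10490.5 and 7586 RPKM at 0 h and at 5402 and 6546 at 6 h, with a log2 fold change of -0.64 and a 95% confidence interval of -1.08 to -0.21 without the 72 h libraries. Csf2, the growth factor GM-CSF, was at 25.2, 26, 72.4 and 16 RPKM at 0 h and at 8.78 and 14.5 at 6 h. Ccl9 was at 2.1 to 30.7 RPKM at 0 h and at 0 and 0.306 at 6 h, and its controls thus spread widely. With no filter on low counts, edgeR called Ccl9 lower in the full fit, and Ccl9, Csf2 and Ccl3 lower without the 72 h libraries.

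Ccl3 and Ccl4, chemokines released by activated NK cells, differed between replicates of the same group more than between the times. Ccl3 was at 225 to 954 RPKM at 0 h and at 430.3 and 57.7 at 6 h, and Ccl4 at 1227 to 3991 and at 2075 and 675. Ifng, interferon gamma, which remodels the spiral arteries of the decidua, was at 29.7, 34.4, 42.4 and 25.1 RPKM at 0 h and at 39.9 and 31.9 at 6 h, fully overlapping. Its log2 fold change was 0.00 with a 95% confidence interval of -0.94 to 0.95 without the 72 h libraries, which leaves changes of nearly 2-fold either way undetectable. Spp1, osteopontin, among the most abundant transcripts of these cells, was at 7298 to 10867 RPKM at 0 h and at 7005 and 6889 at 6 h.

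Under the 10 RPKM filter edgeR called no cytolytic gene, and the intervals were wide. Of 16 tested cytotoxic granule genes, 6 had a positive log2 fold change and the median was -0.06, which became 0.04 with library sizes alone, and edgeR called 0 in either fit, with 0 at an unadjusted p below 0.05 in the full fit and 2 lower without the 72 h libraries. Prf1, perforin, was at 25.9, 21.7, 16.5 and 40 RPKM at 0 h and at 20.7 and 12.7 at 6 h, with a 95% confidence interval of -1.36 to -0.12 for the log2 fold change without the 72 h libraries (adjusted p = 0.314 by edgeR). Gzmb, granzyme B, overlapped at 2442 to 5561 RPKM at 0 h and 3632 and 2652 at 6 h, with an interval of -0.93 to 0.07. Gzma, granzyme A, was above all 0 h libraries at 2857 and 2942 RPKM against 1699 to 2782, with an interval of -0.17 to 0.69. The granzyme Gzmf was below them at 63.6 and 71.9 RPKM against 74.9 to 122 (adjusted p = 0.232 by edgeR without the 72 h libraries). With no filter on low counts, edgeR called another granzyme gene, Gzmg, lower without the 72 h libraries.

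**Figure D4:**
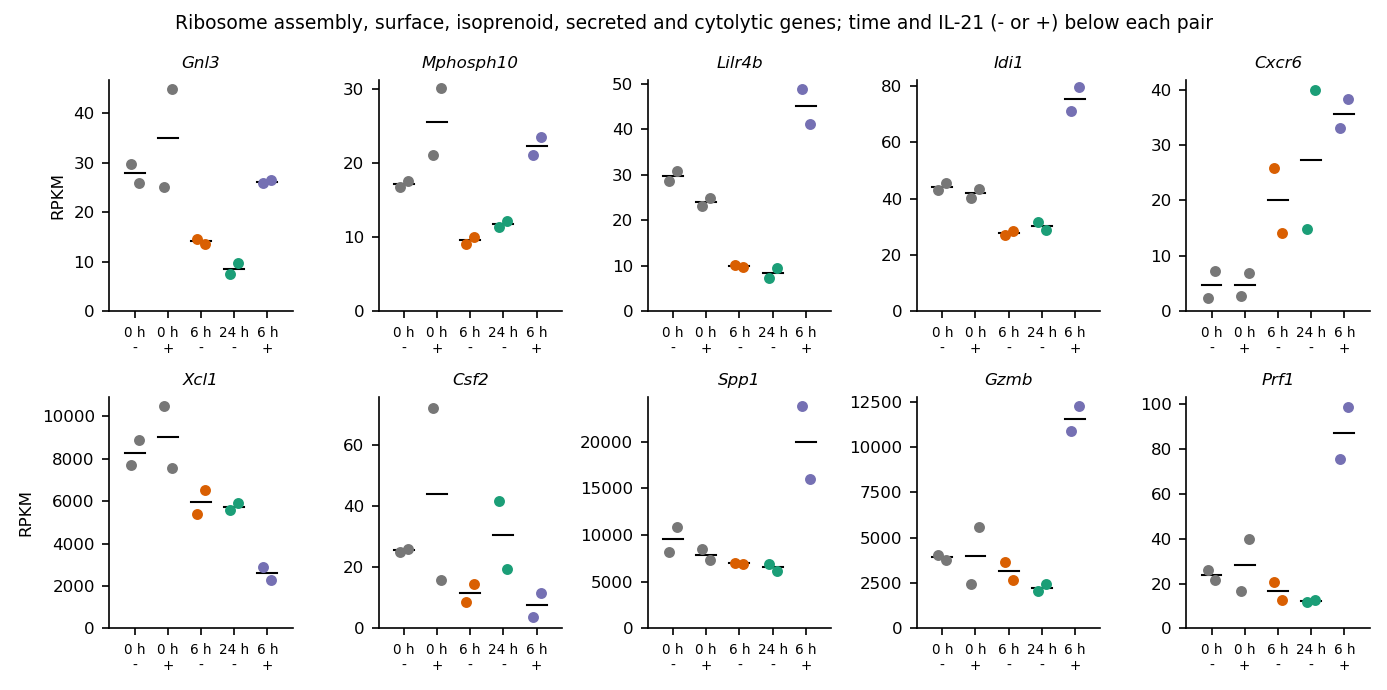
RPKM (linear axes from 0) of ribosome assembly, surface, isoprenoid (Idi1), secreted and cytolytic genes at 0 h - and + IL-21, 6 h and 24 h - IL-21 and 6 h + IL-21, with 1 point per library and a bar at the mean of 2. Lilr4b lies at 23.2 to 30.8 RPKM at 0 h and at 10.1 and 9.78 after 6 h without IL-21, whereas Gzmb and Prf1 overlap between these times.

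In the list of NK cell receptors, which does not hold Lilr4b, edgeR made no call under the 10 RPKM filter. Of 31 tested, 13 had a positive log2 fold change, with a median of -0.05 (0.05 with library sizes alone), and edgeR called 0 in either fit, with 3 higher and 1 lower at an unadjusted p below 0.05 in the full fit. The 6 h libraries exceeded all 0 h libraries for 7 genes, 22.6% beside 14.2% of all tested genes, and fell below them for 3, 9.68% beside 6.22%. Cd226, the activating receptor DNAM-1, was at 37.8 to 46.5 RPKM at 0 h and at 65.7 and 58.6 at 6 h, and Cd96, which shares a ligand with it, at 187 to 287 and at 384 and 341. Tigit, the inhibitory receptor of the same ligands, overlapped at 132 to 183 RPKM at 0 h and 187 and 159 at 6 h. Klra4 and Klra8, of the Ly49 family that reads MHC class I, were below all 0 h libraries, Klra4 at 1314 and 1385 RPKM against 1565 to 1753. Ly49 genes are near-identical copies, so their counts are uncertain. Ncr1, the sort marker NKp46, was at 733 to 918 RPKM at 0 h and at 978 and 896 at 6 h, with a log2 fold change of 0.05 and a 95% confidence interval of -0.22 to 0.31 without the 72 h libraries.

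Among 7 tested transcription factors of NK cells and ILC1s, 3 had a positive log2 fold change, the median was -0.10 and edgeR called 0 in either fit, with 0 at an unadjusted p below 0.05 in the full fit and 1 higher without the 72 h libraries. Eomes, which sets NK against ILC1 identity, was at 9.95 to 18.4 RPKM at 0 h and at 13.4 and 14.6 at 6 h, and Id2, an inhibitor of E proteins required by innate lymphoid cells, at 2289.8 to 2439 and at 2693 and 2939. Nfil3, an early factor of NK development, was at 5.16 to 7.99 RPKM at 0 h and at 18.8 and 7.02 at 6 h, and its replicates at 6 h thus disagreed. The IL-21 receptor gene Il21r lay at 0.562 to 1.61 RPKM at 0 h and at 0.949 and 0.435 at 6 h, and Stat3 at 0.474 to 1.97 and at 1.5 and 1.86, both below the filter and untested.

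Under the 10 RPKM filter, edgeR called no gene in either fit of the groups that tissue handling is known to induce. With no filter on low counts, it called the immediate early phosphatase gene Dusp1 higher without the 72 h libraries. Digestion and sorting came before 0 h as well as 6 h, so the effect of handling was not tested. Of 30 immediate early genes 7 were tested, with a median of 0.17, 0 calls by edgeR in either fit, 0 at an unadjusted p below 0.05 and 0 outside the range of 0 h in both libraries. Fos was at 0 in 3 of the 4 libraries of 0 h and at 0.0564 RPKM in the other, and at 0.32 and 0 at 6 h, and Jun was at most 0.799 RPKM in the 6 libraries. Of 20 tested heat shock and chaperone genes, 18 had a negative log2 fold change, with a median of -0.25, 0 calls by edgeR and 1 lower at an unadjusted p below 0.05 in the full fit. Hspe1, the mitochondrial co-chaperonin, was at 589 ± 161 RPKM at 0 h (SD, n = 4) with a lowest value of 430.3, and at 261 and 346 at 6 h, below all of these. DESeq2 called Hspe1 in the full fit, DESeq2 and limma voom called it without the 72 h libraries, and edgeR with no covariates did not call it without them (log2 fold change -1.05, adjusted p = 0.074). Its partner Hspd1 overlapped, at 31.8 to 80.4 RPKM at 0 h and 41.1 and 29.8 at 6 h.

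edgeR called no gene of the metabolic and stress lists. Of 66 tested respiratory chain genes 20 had a positive log2 fold change, with a median of -0.16. The medians were 0.01 for 12 glycolysis and hypoxia genes, -0.17 for 10 genes of cholesterol and fatty acid synthesis, -0.33 for 10 amino acid response genes, 9 of them negative, -0.05 for 17 endoplasmic reticulum stress genes and 0.26 for 15 oxidative stress genes, 11 of them positive. They were -0.07 for 10 IL-15 and STAT5 response genes, 0.06 for 7 cytokine receptors, 0.00 for 16 genes of MHC class I and antigen processing, -0.08 for 15 genes of apoptosis and the p53 response and 0.03 for 25 actin and adhesion genes. edgeR called 0 genes of these lists in either fit, where at an unadjusted p below 0.05 in the full fit the lists held from 0 to 2 genes in a direction. Lgals3 of the actin and adhesion list, the lectin galectin-3, was at 552, 351, 280.2 and 312 RPKM at 0 h and at 977 and 651 at 6 h, and DESeq2 and limma voom called it without the 72 h libraries. With no filter on low counts, edgeR called Lgals3 in both fits. With library sizes alone the medians of the IL-15, endoplasmic reticulum stress and apoptosis lists took the other sign, at 0.03, 0.04 and 0.04. With only 0 h - IL-21 as control, the sign also changed for several lists. The medians were then -0.08 for glycolysis and hypoxia, 0.03 for endoplasmic reticulum stress, -0.09 for cytokine receptors and 0.23 for apoptosis.

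Smaller lists gave few tested genes. Of 4 tested TGF-beta response genes 2 were higher at an unadjusted p below 0.05 in the full fit and 0 were called by edgeR in either fit, with a median of 0.35. Cd9, described above, is among them. Ldlrad4, an inhibitor of TGF-beta signalling, was at 2.64, 6.01, 3.64 and 4.68 RPKM at 0 h and at 12.8 and 13 at 6 h, above every 0 h library. Every 0 h value was under 10 RPKM, so Ldlrad4 was tested only through later groups, and the filter favours its rise. Its log2 fold change was 1.51 with an SE of 0.40 in the full fit (adjusted p = 0.435 by edgeR, 0.0845 without the 72 h libraries). DESeq2, limma voom and edgeR with no filter on low counts called it without those libraries. Of 3 tested NF-kB subunits and feedback regulators, of 2 glucocorticoid and cAMP response genes and of 4 circadian and quiescence genes, 0 were called and 0 had an unadjusted p below 0.05 in the full fit, with medians of 0.18, -0.30 and -0.08. The 5 tested nuclear retained transcripts all had a negative log2 fold change, with a median of -0.48 and 0 calls by edgeR. Malat1, a long noncoding RNA of the nucleus, was at 90.1 to 217 RPKM at 0 h and at 108 and 129 at 6 h.

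**Figure D5:**
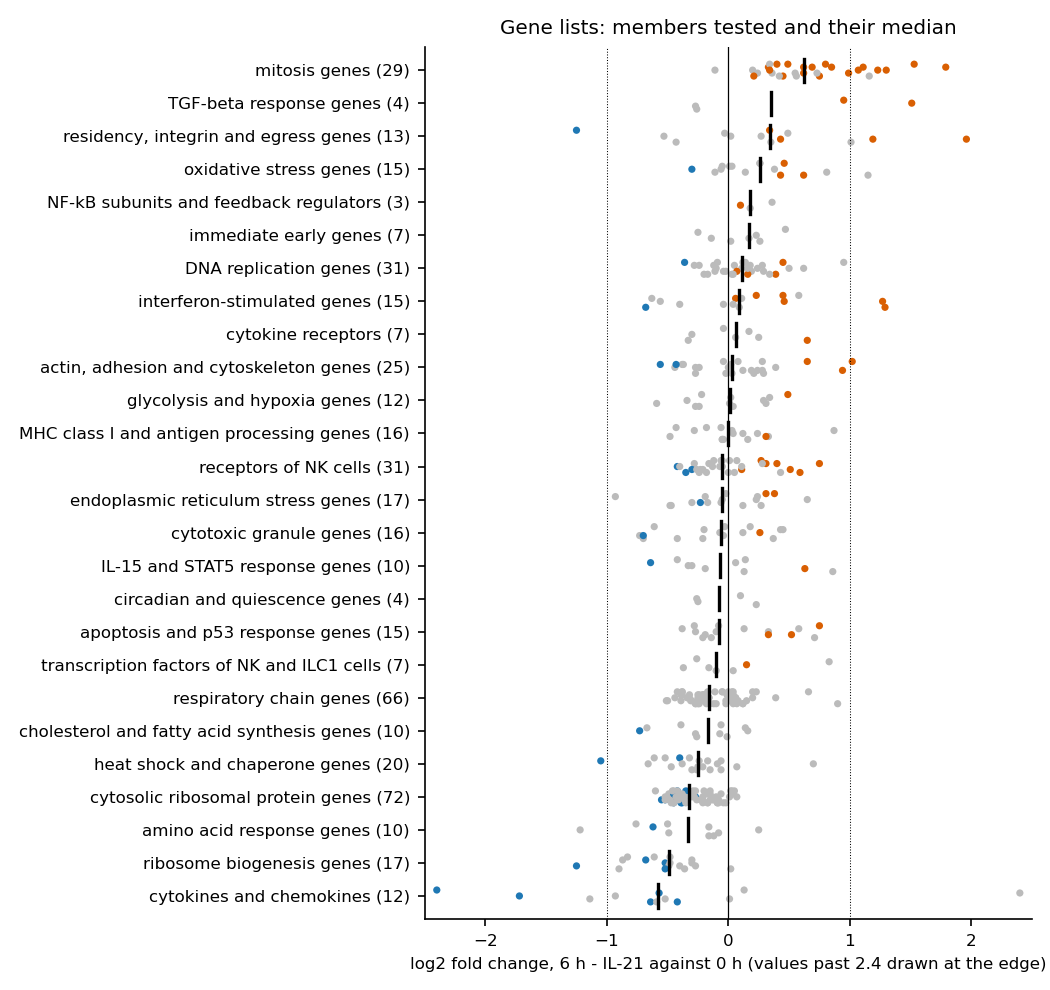
Median log2 fold change of 6 h - IL-21 against 0 h for gene lists, with points for the tested members. Vertical bars are medians, orange and blue points are genes with both 6 h libraries above or below all 0 h libraries, and the Ccl9 and Il10 points are drawn at the edges. Of the lists drawn, which leave out markers, RNA quality and lists with few tested genes, the mitosis list lies highest at a median of 0.62 and cytokines and chemokines lowest at -0.58, beside 0.00 for all 3503 genes.

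The later libraries without IL-21 show how far the 6 h levels were kept. Ccnb2 was at 434 and 398 RPKM at 24 h and at 0 in both libraries of 72 h, and Ube2c at 198 and 219.9 and at 3.71 and 0.0185. Gnl3 was at 7.42 and 9.61 RPKM at 24 h and at 10 and 9.1 at 72 h. Lilr4b was at 7.21 and 9.56 RPKM at 24 h and at 14 in both libraries of 72 h, and Qpct at 134 and 108 and at 152 and 202. For all 5 genes the 24 h libraries were on the same side of the 0 h range as the 6 h libraries, and for the 2 mitosis genes the 72 h libraries were below that range. The 72 h - IL-21 libraries also held 8.44% and 11.8% mitochondrial counts and 10728 and 11671 genes with a count, beside 3.57% to 5.42% and 14285 to 15688 in the 6 libraries of 0 h and 6 h, and the part of RNA quality in their levels was not tested. These values share their 0 h controls with the 6 h comparison.

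The libraries of 6 h with IL-21 and 0 h + IL-21 form a second comparison that shares no library with 6 h - IL-21 against 0 h - IL-21. With 2 libraries against 2 in the full fit, edgeR called 0 genes without IL-21, against 106 genes at an unadjusted p below 0.05, 6 by DESeq2 and 0 by limma voom, and 1 by edgeR without the 72 h libraries. With IL-21 edgeR called 95 genes, 2.71%, and 445 without the 72 h libraries. The 95 calls fell to 7 without 6 h + IL-21 replicate 1, to 8 without its replicate 2, to 34 without 0 h + IL-21 replicate 1 and to 63 without 0 h + IL-21 replicate 2. The number called in both in the same direction was 0 by edgeR and 3 by DESeq2, Ccnb1, Ccnb2 and Hmgn2. These 3 were 50% of the 6 genes DESeq2 called without IL-21 and 1.22% of the 245 it called with IL-21. In the 6 h + IL-21 libraries, Ccnb2 was at 295 and 289 RPKM, Ccnb1 at 48.5 and 50.3 and Ube2c at 159 and 124, so these mitosis genes lay above all 0 h libraries with and without the cytokine.

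The step from 0 h to 6 h differed with IL-21 for 4 genes in the full fit, 0.114% of those tested, by edgeR. The number was 81 by DESeq2, 6 by limma voom and 126 by edgeR without the 72 h libraries. Lilr4b was at 48.8 and 41.3 RPKM after 6 h with IL-21, where it was 10.1 and 9.78 without, and the difference between the steps was 2.38 on the log2 scale with an SE of 0.33 (adjusted p = 0.0134 by edgeR). Qpct was at 16 and 17.3 RPKM with IL-21 and at 108 and 123 without, a difference of -3.05 with an SE of 0.41 (adjusted p = 0.0134 by edgeR). The other two were Klrb1c, the sort marker NK1.1, at 115 and 117 RPKM with and 319 and 337 without IL-21, and Bcl2, an inhibitor of apoptosis, at 4.46 and 4.33 with and 12.8 and 14.4 without. For Klrb1c and Bcl2 the 6 h - IL-21 libraries stayed close to 0 h, at 267 to 310 RPKM for Klrb1c and 12.8 to 16.2 for Bcl2. Lilr4b and Qpct moved away from 0 h in opposite directions in the 2 media.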

How the data were processed

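The authors deposited raw counts, whole numbers of reads per gene without normalization, with the exons and length of each gene on GRCm38 (mm10). The labels name the Vazyme Single Cell Full Length kit with 5 ng RNA and, in the submitters' processing notes, HISAT2 2.1.0 and featureCounts, while the methods name the SMART-Seq HT kit and RSEM. Such PCR libraries carry no molecular identifiers.

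For the 16 time-course libraries, edgeR 4.0.16 in R 4.3.3 fitted a quasi-likelihood model to the counts with TMM factors and no covariates. Standard errors came from its F statistic, and RPKM from the deposited lengths. The 0 h groups were merged, giving 7 groups in the fit. Following the methods, genes exceeding 10 RPKM in each library of at least 1 labelled group were kept. Calls needed a Benjamini-Hochberg adjusted p under 0.05 and more than a 2-fold difference. DESeq2 1.42.0, limma 3.58.1 voom, other filters, other scalings, single controls, a replicate block and fits without single libraries or the 72 h libraries were alternatives. The scripts were tested on simulated data.

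Named genes were the 12 largest rises and falls among calls whose libraries did not overlap, up to 2 genes per list by call or level, genes the study names for its cultures, and list genes where their role is described. The same rule was applied to calls without the 72 h libraries. Gpr183, Cxcr6, Hspe1, Lgals3, Hmgn2-ps1, Lilrb4a and Bcl2 were added after values were seen. Members and lists were chosen with earlier results of these data known. Some called genes are not reported here. Other experiments of the series were not used.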

Additional observations from a re-analysis of the deposited data

Results flagged for a closer look

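Among 92 genes checked in the 4 libraries of 0 h, 4 held a library far from the other three by Dixon's criterion at the 95% level, where chance gives about 1 in 20 groups. Cenpa reached 27.9 RPKM in 0 h - IL-21 replicate 2, beside 19.9 to 20.5 in the others, and both 6 h libraries lay above it. Cd27, a co-stimulatory receptor of NK cell maturation, was at 11.7 RPKM in 0 h + IL-21 replicate 1 beside 22.5 to 23.7, and at 16.6 and 11.2 after 6 h. Itgax, the integrin CD11c, was at 16.7 RPKM in 0 h + IL-21 replicate 2 beside 10.5 to 11.5. Ighd, the heavy chain of IgD, was at 3.74 RPKM in 0 h - IL-21 replicate 2 beside 10.4 to 11.1.

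The step from 0 h to 6 h differed between cultures with and without IL-21 by 2.38 on the log2 scale for Lilr4b and by -3.05 for Qpct (adjusted p = 0.0134 for both by edgeR's interaction contrast).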

How the results depend on the processing

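Fold changes kept their direction wherever they were called, and the counts of calls did not hold. Against 1 called gene (0 higher, 1 lower), the counts of called, higher and lower genes were 12, 8 and 4 by DESeq2, 7, 5 and 2 by limma voom, 11, 8 and 3 with no filter on low counts, and 17, 13 and 4 without the 72 h libraries, where DESeq2 gave 42, 32 and 10 and limma voom 34, 29 and 5. With library sizes alone 4 were called, 3 of them higher. The filterByExpr filter, a fit of only the libraries compared, the 0 h groups averaged, and either 0 h group as the only control each gave 0 called and 0 lower. Leaving out 1 library gave 0 to 2 called, 0 to 1 higher and 0 to 1 lower.

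Against 17 called without the 72 h libraries (13 higher, 4 lower), the counts were 42, 32 and 10 by DESeq2, 34 and 29 called and higher by limma voom, 0, 0 and 0 with filterByExpr, 101, 76 and 25 with no filter, and 1, 0 and 1 with only 0 h - IL-21 as control. Lower genes were 7 with only 0 h + IL-21 as control and 2 with library sizes alone. With no limit on the fold, 29 passed, 10 of them lower. Leaving out 1 library gave 0 to 36 called, 0 to 31 higher and 0 to 5 lower.

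Genes called in both separate sets were 0, then 3 by DESeq2 and 1 with no filter. Genes called between the 0 h groups were 0, then 3 with no filter. Genes whose step differed with IL-21 were 4, then 81 by DESeq2 and 126 without the 72 h libraries.

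With the replicate number as a block 2 genes were called, 1 higher, and 20 without the 72 h libraries, which include Cxcr6, H2afv, Hspe1, Lgals3 and Sumo3 and leave out Isg20 and Ckap2l. The labels do not say whether these numbers pair the samples. Deviations of same-numbered libraries correlated at 0.217 between 0 h - IL-21 and 6 h - IL-21 and at -0.25 between 0 h + IL-21 and 6 h - IL-21. Over all pairs of labelled groups they correlated at -0.392 to 0.477, which does not settle the pairing. Neither the cause of these changes nor the part of sequencing depth was tested.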
